A study of Mus musculus with 11 samples.

Results

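The genes described here are 7 enzymes and carriers of steroid synthesis and conversion, Cyp11a1, Star, Fdx1, Fdxr, Akr1c18, Srd5a1 and Hsd11b1, found by symbol among the 21860 genes of the expression table. They were chosen with their measured values in the same comparisons already known, so their levels are given as a description, with no test, and a direction seen in them is not independent evidence. Bulk RNA-seq covered 11 samples. In each, cells gated as CD11b-low and EpCAM+ had been taken on day 6 from cultures started with mouse bone marrow monocytes. These cultures yield monocyte-derived cells that resemble Langerhans cells, phagocytes that live in the epidermis (mLC-like cells), and the comparisons asked what Notch and aryl hydrocarbon receptor (Ahr) signals add to such cells. Every culture received GM-CSF at 20 ng/ml. The groups were Jag1 only (n = 1), which had neither TGFβ nor IL-34, and 4 groups that had both, TGFβ at 5 ng/ml with 8 µg/ml of IL-34. Of these, TGFβ/IL-34 and TGFβ/IL-34/FICZ had 2 samples each, and the groups with Jag1 added to either, TGFβ/IL-34/Jag1 and its counterpart TGFβ/IL-34/Jag1/FICZ, had 3 each. FICZ is a small molecule that the study uses as an Ahr agonist, although the deposited design text calls it an antagonist. Jag1, a ligand of Notch receptors, was presented by a layer of OP9 cells, a mouse stromal line made to carry it, so that Jag1 and the stromal layer cannot be told apart in these groups. The labels name the OP9 co-culture for all 11 samples, but the summed OP9 stroma markers (9 genes, collagens among them) stood at 12.8 to 38.0 normalized counts in the 4 samples without Jag1 and at 391 to 4630 in the 7 samples with it. Nothing in the labels says that replicates came from separate animals, so the spread between them may be technical.

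Steroid synthesis starts in mitochondria. The carrier protein made from Star brings cholesterol to the inner membrane, where the cytochrome P450 encoded by Cyp11a1 cuts off the side chain and yields pregnenolone, the parent of all other steroids. That P450 receives its electrons from ferredoxin (Fdx1), which is charged by ferredoxin reductase (Fdxr). The remaining members act on finished hormones. Akr1c18 encodes a 20α-hydroxysteroid dehydrogenase that inactivates progesterone, Srd5a1 a 5α-reductase that acts on testosterone and progesterone, and Hsd11b1 the enzyme that regenerates active glucocorticoid from its inert form. The adrenal gland and the gonads are the classical sites of this pathway, and Cyp11a1 has also been described in immune cells such as mast cells and type 2 helper T cells.

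Promoters are shown for the members with the widest spread of values between groups and for a pair that carry the short core motif bound by the Ahr complex. Each sequence runs 5′ to 3′ on the strand of its gene, from 250 bases before to 30 bases after the start of the canonical transcript, on GRCm39 with GENCODE vM39. Capitals mark the Ahr core, GCGTG or its reverse complement CACGC.
Cyp11a1 (chr9:57921616-57921895, plus strand): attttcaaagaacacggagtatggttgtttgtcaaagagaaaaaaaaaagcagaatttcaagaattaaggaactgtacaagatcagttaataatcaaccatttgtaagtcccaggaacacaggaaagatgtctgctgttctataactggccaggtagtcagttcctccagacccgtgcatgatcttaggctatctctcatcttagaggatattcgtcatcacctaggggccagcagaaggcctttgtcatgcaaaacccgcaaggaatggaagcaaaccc
Akr1c18 (chr13:4200643-4200922, minus strand): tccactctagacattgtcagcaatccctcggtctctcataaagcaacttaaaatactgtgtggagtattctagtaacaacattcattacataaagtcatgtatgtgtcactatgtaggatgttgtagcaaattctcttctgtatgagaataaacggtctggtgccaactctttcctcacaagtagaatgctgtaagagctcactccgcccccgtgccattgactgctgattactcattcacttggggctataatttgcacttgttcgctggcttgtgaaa
Hsd11b1 (chr1:192924908-192925187, minus strand): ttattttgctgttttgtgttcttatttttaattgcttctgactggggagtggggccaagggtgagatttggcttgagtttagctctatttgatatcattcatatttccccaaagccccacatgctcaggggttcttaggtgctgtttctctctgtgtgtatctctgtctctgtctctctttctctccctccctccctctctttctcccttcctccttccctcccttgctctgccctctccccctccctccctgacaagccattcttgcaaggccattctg
Fdx1 (chr9:51874839-51875118, minus strand): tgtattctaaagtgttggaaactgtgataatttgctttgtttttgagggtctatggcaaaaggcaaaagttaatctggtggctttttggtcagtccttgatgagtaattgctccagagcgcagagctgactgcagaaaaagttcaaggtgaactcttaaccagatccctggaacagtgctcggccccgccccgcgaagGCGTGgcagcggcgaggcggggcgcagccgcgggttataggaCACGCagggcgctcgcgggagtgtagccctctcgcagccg
Srd5a1 (chr13:69759721-69760000, minus strand): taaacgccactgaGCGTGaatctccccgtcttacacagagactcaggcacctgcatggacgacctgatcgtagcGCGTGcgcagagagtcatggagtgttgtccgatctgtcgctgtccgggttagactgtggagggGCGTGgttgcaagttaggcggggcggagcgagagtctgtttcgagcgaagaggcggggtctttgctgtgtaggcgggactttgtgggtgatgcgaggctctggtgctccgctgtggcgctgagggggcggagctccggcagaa
The Ahr core was not found in the windows of Cyp11a1, Akr1c18 and Hsd11b1, nor in that of Star. It was present 2 times in the Fdx1 window, 1 time in that of Fdxr and 3 times in that of Srd5a1. Over 21491 promoters of the same length, 35.0% held it on either strand, and among those of genes tested below the share was 44.8%. The site of NR5A receptors, the master regulators of steroid-producing glands (CAAGGTCA, either strand), was in none of the 7 windows and in 1.5% of all promoters. A GATA factor site (AGATAA, either strand) was in the Star window alone, beginning 29 bases before the start, against 10.2% of all promoters. Only the canonical start of each gene was searched. The windows of Cyp11a1 and Hsd11b1 lie inside genes annotated further upstream, to positions 57913694 and 192946489, so other starts of these genes were not covered. These are matches of letters in a window, and they say nothing about which factor was bound.

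Values are normalized counts, the authors' estimated gene counts divided by normalization factors. These factors appear from the values to correct for transcript length per gene and sample as well as for library size, so a conversion to reads is approximate. They summed to 21.3 to 27.8 M per sample, and the spacing of low values put 1 read at about 0.894 to 1.15 normalized counts and the depth at about 20.6 to 24.2 M reads. Where a gene is at 0, as many as 3 reads may have been missed, equal to 2.68 to 3.45 normalized counts (counting error only). Across genes, samples of the same group correlated at 0.922 to 0.980 and samples of different groups at 0.864 to 0.970 (Pearson's r of log2 values). The 0.970 was between replicate 2 of TGFβ/IL-34/FICZ and replicate 2 of TGFβ/IL-34. The lowest value within a group was between the 2 TGFβ/IL-34/FICZ samples, and replicate 1 of that group also had the highest total and the lowest number of genes above 0 (13453). Member values in that group are given for both of its samples, while some values of other genes are means of the 2. Per the column names, replicate 1 of each FICZ group was run on another flow cell than the remaining samples, and the part of the flow cell in the values was not tested. The sorted cells held Epcam at 657 normalized counts in Jag1 only and at 3952 to 14377 elsewhere, while Cd207, which encodes langerin and defines Langerhans cells, stood at 1366 to 1784 in TGFβ/IL-34/Jag1, at 154 and 157 in TGFβ/IL-34 and at 6.21 to 132 in the other groups.

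Cyp11a1 (ENSMUSG00000032323, chromosome 9, 57913694 to 57935933, GRCm39) was lowest in TGFβ/IL-34/Jag1 and highest with FICZ. Its normalized counts were 125, 145 and 86.3 in TGFβ/IL-34/Jag1, and 757 and 927 in TGFβ/IL-34. With FICZ they were 4747 and 3431 in TGFβ/IL-34/FICZ, and 5082, 5428 and 4237 in TGFβ/IL-34/Jag1/FICZ. The Jag1 only sample stood at 1319, between TGFβ/IL-34 and the FICZ groups. The order from low to high was thus TGFβ/IL-34/Jag1, TGFβ/IL-34, Jag1 only and then both FICZ groups, whose values overlapped each other.

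The Cyp11a1 level was lower with Jag1 where FICZ was absent, and similar with and without Jag1 where FICZ was present. Without FICZ, the mean of the TGFβ/IL-34 group was 842 ± 120 (SD, n = 2) and that of the group given Jag1 as well 119 ± 29.7 (SD, n = 3), a log2 difference of −2.84 (SE 0.249), and the lowest TGFβ/IL-34 value was 5.23 times the highest value with Jag1. FICZ without Jag1 gave 4089 ± 931 (SD, n = 2), a log2 difference of 2.27 (SE 0.273) from TGFβ/IL-34. FICZ with Jag1 gave 4916 ± 613 (SD, n = 3), a log2 difference of 5.38 (SE 0.223) from TGFβ/IL-34/Jag1, and the groups were parted by a factor of 29.3 between their nearest samples. The Jag1 effect in the presence of FICZ was 0.28 (SE 0.249), with overlapping groups. All log2 differences here are of log2(normalized count + 1), which understates the change of genes near 0.

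The same pattern held within experiments as the sample descriptions code them. FICZ with Jag1 gave a log2 difference in Cyp11a1 of 5.33 in AA45, 5.22 in AA47 and 5.6 in AA48. Jag1 without FICZ gave −2.38 in AA47 and −3.41 in AA48. FICZ without Jag1 could be compared within AA47 alone, where the log2 difference was 2.18, and Jag1 with FICZ gave 0.10 in AA45 and 0.66 in AA47. With the experiment code of a second file of the authors, which differs for replicate 1 of TGFβ/IL-34, FICZ without Jag1 gave 2.65 in AA45. With replicate 1 of the TGFβ/IL-34/FICZ group left out, that difference was 2.03 for Cyp11a1, 1.29 for Akr1c18 and 0.55 for Hsd11b1.

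**Figure D1:**
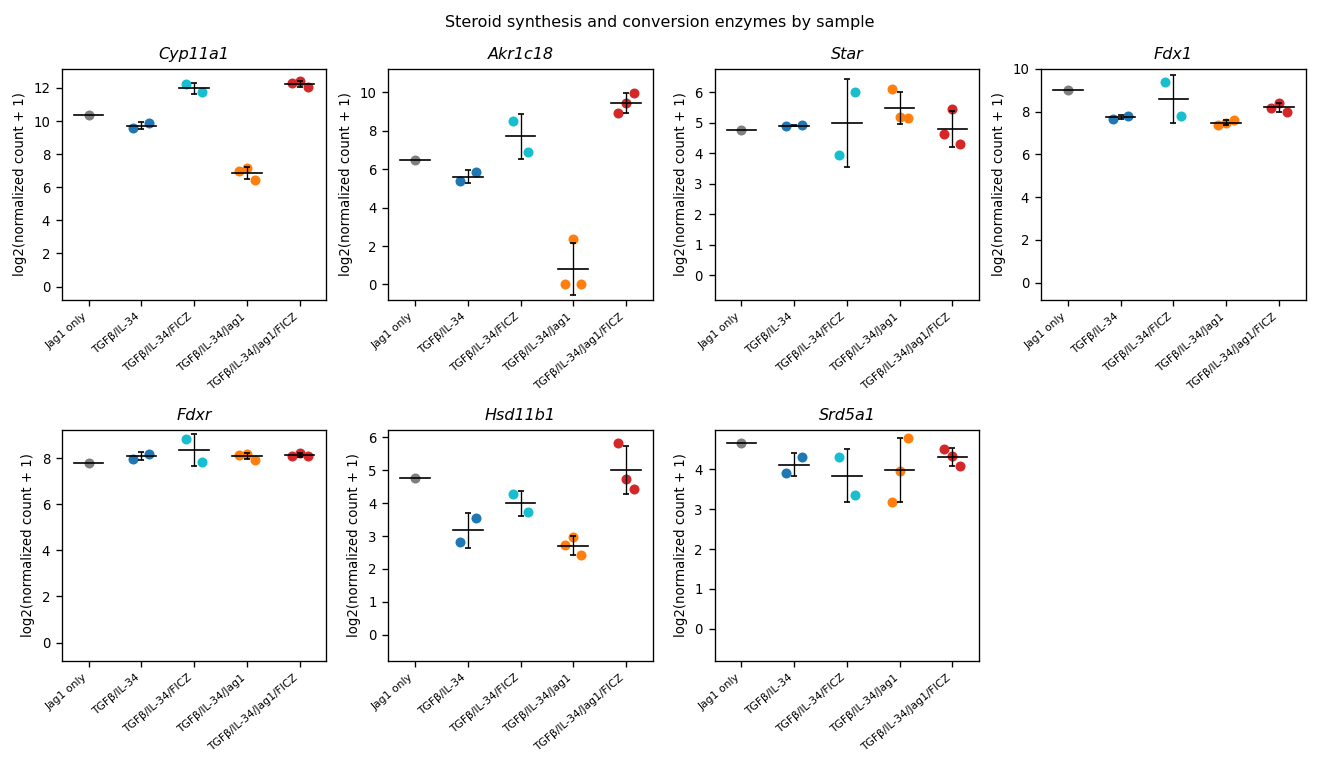
Expression of the 7 enzymes in each of the 11 samples, as log2(normalized count + 1), by culture group on the horizontal axis. Points are samples, black lines are group means and bars are 1 SD where a group has more than 1 sample. Cyp11a1 and Akr1c18 are lowest in the 3 TGFβ/IL-34/Jag1 samples and highest in the FICZ groups, while Fdxr lies between 220 and 462 normalized counts throughout.

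The partners of Cyp11a1 in side-chain cleavage did not share its range. Fdxr (ENSMUSG00000018861, chromosome 11, 115158844 to 115168006) was at 220 normalized counts in Jag1 only, 251 and 294 in TGFβ/IL-34, 280, 292 and 245 in TGFβ/IL-34/Jag1 and 272, 299 and 273 in TGFβ/IL-34/Jag1/FICZ. The TGFβ/IL-34/FICZ samples stood at 462 and 231, so that the highest Fdxr value of the series and one of its lowest belonged to the same group. The log2 difference between FICZ and no FICZ was 0.05 (SE 0.258) with Jag1 and 0.26 (SE 0.316) without it.

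Fdx1 (ENSMUSG00000032051, chromosome 9, 51852253 to 51875291) was at 163, 178 and 197 normalized counts in TGFβ/IL-34/Jag1 and at 290, 338 and 255 when FICZ was added, groups that did not overlap. The log2 difference was 0.71 (SE 0.350), far smaller than that of Cyp11a1. In TGFβ/IL-34 it was at 203 and 224, just above every TGFβ/IL-34/Jag1 sample (log2 difference with Jag1 −0.25, SE 0.391). The TGFβ/IL-34/FICZ samples were at 670 and 221, of which the second lay within the TGFβ/IL-34 values. Jag1 only stood at 508, the second highest value of the gene.

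Star (ENSMUSG00000031574, chromosome 8, 26296583 to 26306010) was low, at 14.5 to 67.1 normalized counts. It was at 67.1, 35.3 and 34.6 in TGFβ/IL-34/Jag1, above the 28.7 and 29.2 of TGFβ/IL-34 (log2 difference 0.57, SE 0.635). It was at 23.5, 42.8 and 18.7 in TGFβ/IL-34/Jag1/FICZ and at 14.5 and 62.8 in TGFβ/IL-34/FICZ, so that both FICZ groups spread across the values without FICZ. Jag1 only was at 26.2. Star thus did not follow Cyp11a1, and its log2 difference for FICZ with Jag1 was −0.69 (SE 0.568).

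Akr1c18 (ENSMUSG00000021214, chromosome 13, 4182614 to 4200672) was the member closest to Cyp11a1 in its pattern. It stood at 0, 4.09 and 0 normalized counts in TGFβ/IL-34/Jag1, close to the limit of detection, and at 40.4 and 56.4 in TGFβ/IL-34. The TGFβ/IL-34/FICZ samples were at 368 and 118, the TGFβ/IL-34/Jag1/FICZ samples at 494, 699 and 999, and Jag1 only at 87.8. No 2 of the 4 groups with TGFβ and IL-34 overlapped, and the 3 samples with both Jag1 and FICZ were the highest of the series.

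The Jag1 difference in Akr1c18 had opposite signs without and with FICZ, of which the second was not called in the fit across all genes. Without FICZ, its mean was 48.4 ± 11.3 (SD, n = 2) before and 1.36 ± 2.36 (SD, n = 3) after addition of Jag1 to TGFβ and IL-34, a log2 difference of −4.82 (SE 0.745). In the presence of FICZ it was 243 ± 177 (SD, n = 2) without and 731 ± 254 (SD, n = 3) with Jag1, a log2 difference of 1.74 (SE 0.745). FICZ gave 2.10 (SE 0.816) without Jag1 and 8.67 (SE 0.666) with it. Differences from TGFβ/IL-34/Jag1 depend on the number added before the logarithm, since 2 of its 3 samples were at 0. With a pseudocount of 4, FICZ with Jag1 gave 7.12, Jag1 without FICZ −3.36 and the interaction 5.08. On the normalized scale, the lowest value with Jag1 and FICZ was 121 times the highest value with Jag1 and no FICZ. Within experiments, the Jag1 effect with FICZ was 0.42 in AA45 and 2.55 in AA47, and FICZ with Jag1 gave 8.95 in AA45, 7.10 in AA47 and 9.97 in AA48.

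Hsd11b1 (ENSMUSG00000016194, chromosome 1, 192903918 to 192946489) was low throughout, with 10 or more normalized counts in 7 of 11 samples. It was at 5.64, 6.92 and 4.34 in TGFβ/IL-34/Jag1 and at 55.4, 25.9 and 20.8 when FICZ was added, a log2 difference of 2.29 (SE 0.524). It was at 5.99 and 10.8 in TGFβ/IL-34, at 18.3 and 12.3 in TGFβ/IL-34/FICZ (log2 difference 0.82, SE 0.641) and at 26.2 in Jag1 only. Samples with FICZ were therefore above those without it in each pair of groups, but by small numbers of reads where Jag1 was absent. Within experiments, FICZ with Jag1 gave 3.09 in AA45, 1.76 in AA47 and 2.03 in AA48. Summed OP9 stroma markers in the 3 samples with both Jag1 and FICZ were 679, 1757 and 4630. That order is opposite to that of their Hsd11b1 values and the same as that of their Akr1c18 values (494, 699 and 999). The part of stroma in the level of either gene was not tested.

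Srd5a1 (ENSMUSG00000021594, chromosome 13, 69721568 to 69759750) stayed between 8.04 and 26.5 normalized counts. It was at 14.0 and 18.9 in TGFβ/IL-34, at 18.9 and 9.27 in TGFβ/IL-34/FICZ, at 8.04, 14.4 and 26.5 in TGFβ/IL-34/Jag1, and at 21.7, 18.9 and 15.8 in TGFβ/IL-34/Jag1/FICZ. Jag1 only was at 24.2. The 4 groups with TGFβ and IL-34 overlapped one another, and every log2 difference was smaller than its SE. Of the 31-base words in its canonical transcript 22.7% also occur in Gm17108, a gene model that overlaps it on the same strand, so its level is uncertain to that extent. For Cyp11a1, Fdx1, Fdxr and Hsd11b1 that share was 0%, and for Akr1c18 it was 4.18%.

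**Figure D2:**
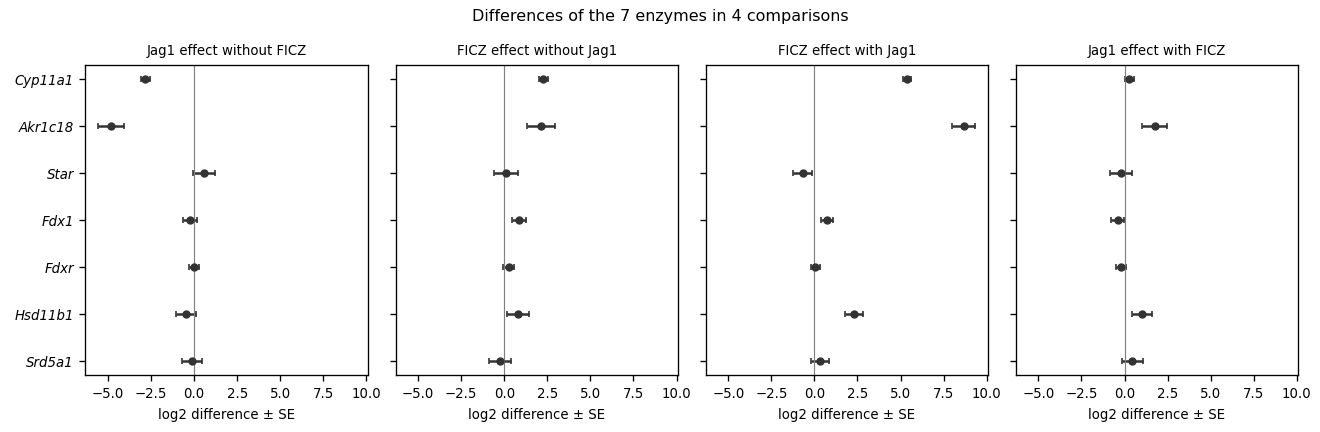
Differences of log2(normalized count + 1) for the 7 enzymes, 1 panel per comparison, with bars of 1 SE from the fit across all genes. Points right of the line are higher with the added factor. Cyp11a1 and Akr1c18 lie left of 0 for Jag1 without FICZ (−2.84 and −4.82) and far right of it for FICZ with Jag1 (5.38 and 8.67).

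Against all genes, the fit across 13095 tested genes (limma with Benjamini-Hochberg adjustment, threshold 0.05) gave the following background. All 7 members passed the filter of at least 10 normalized counts in at least 2 samples. For Jag1 without FICZ, 6.60% of all tested genes were called and 2 of the members, Cyp11a1 and Akr1c18, both lower. For FICZ without Jag1 the background was 0.0229%, which is 3 genes, and 1 member was among them, Cyp11a1. For FICZ with Jag1 it was 17.7%, and 3 members were called higher, Cyp11a1, Akr1c18 and Hsd11b1. For Jag1 with FICZ it was 2.02% and no member was called. An unadjusted p under 0.05 (limma) was found there for 1 of the 7 members and for 3039 of the 13095 tested genes. The difference between the FICZ effects with and without Jag1 (the interaction) was called for 1.39% of genes and for 2 members, Cyp11a1 at 3.12 (SE 0.352) and Akr1c18 at 6.57 (SE 1.05) on the log2 scale. Because the members were picked from these contrasts, nothing is read from these counts. The call of Cyp11a1 for FICZ without Jag1 was absent under 8 of 12 other settings, and that of Akr1c18 in the interaction under 8 of 18. Without replicate 2 of TGFβ/IL-34, Cyp11a1 was not called in the interaction and Akr1c18 was not called for Jag1 without FICZ (log2 difference −4.59), and Hsd11b1 was not called for FICZ with Jag1 when the first sample with both factors was left out (1.89).

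Groups that do not overlap are common at these sample numbers. For Jag1 without FICZ, 46.6% of tested genes had groups that did not overlap, and so did 4 of the 7 members. For FICZ without Jag1 the background was 45.7% and the count 3, for FICZ with Jag1 45.1% and 4, and for Jag1 with FICZ 35.8% and 2 (Akr1c18 and Hsd11b1).

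Around the members, 76 genes in 5 lists cover the rest of the pathway, and 47 of them passed the filter. Cyp17a1, Cyp19a1, Cyp11b1 and Cyp11b2, which make androgens, oestrogens, corticosterone and aldosterone, were listed at 0 in all 11 samples, and they are among 15 of the 34 other steroid enzymes in the table for which this held. Of the 3β-hydroxysteroid dehydrogenases that turn pregnenolone into progesterone, Hsd3b1, Hsd3b3 and Hsd3b6 were listed at 0 and Hsd3b2 was at 35.3 to 118 normalized counts. Nr5a1, the regulator of steroidogenic genes in adrenal and gonad, was listed at 0 in all samples, together with Nr5a2, Gata4 and Nr0b1. H6pd, which supplies the cofactor of the Hsd11b1 enzyme, was at 594 to 987.

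In the list of other steroid enzymes, the pair that moved with the members was Akr1c12 and Akr1c13, aldo-keto reductase genes that neighbour Akr1c18 on chromosome 13. Akr1c13 (4241149 to 4255602) lies next to Akr1c18 and Akr1c12 (4318168 to 4329432) beyond Akr1c19. Akr1c12 fell with Jag1 from 203 ± 54.5 (SD, n = 2) to 52.6 ± 13.5 (SD, n = 3) normalized counts, a log2 difference of −1.93 (SE 0.311, limma, adjusted p 0.00501), and rose with FICZ in Jag1 cultures to 653 ± 51.6 (SD, n = 3), by 3.64 (SE 0.278, limma, adjusted p 3.46e-05). Akr1c13 fell with Jag1 from 804 ± 65.2 (SD, n = 2) to 275 ± 65.5 (SD, n = 3), by 1.57 on the log2 scale (SE 0.220, limma, adjusted p 0.00254), and rose with FICZ to 1552 ± 11.7 (SD, n = 3), by 2.52 (SE 0.197, limma, adjusted p 3.71e-05).

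In single samples, Akr1c12 was at 39.7, 66.6 and 51.4 in TGFβ/IL-34/Jag1 and at 600, 703 and 657 in TGFβ/IL-34/Jag1/FICZ, with 547 and 351 in TGFβ/IL-34/FICZ, 165 and 242 in TGFβ/IL-34 and 97.3 in Jag1 only. Akr1c13 was at 204, 333 and 288 against 1546, 1566 and 1545, with 1676 and 1406 in TGFβ/IL-34/FICZ, 758 and 850 in TGFβ/IL-34 and 232 in Jag1 only. Between the 2 FICZ groups the values of Akr1c13 overlapped, and those of Akr1c12 did not, being higher with Jag1. The FICZ effect was larger with Jag1 than without it for both, by 2.51 for Akr1c12 (SE 0.440, limma, adjusted p 0.0365) and by 1.59 for Akr1c13 (SE 0.311, limma, adjusted p 0.0430). With the replicate block the adjusted p of Akr1c13 was 0.0558 (limma). The call was absent under 9 and 11 of 18 other settings, where the adjusted p was 0.0566 to 0.216 and 0.0556 to 0.249. Without replicate 2 of TGFβ/IL-34 the Jag1 effect was not called for either (limma, adjusted p 0.0934 and 0.0509). Akr1c12 and Akr1c13 share 39.0% of their 31-base words with each other, and their promoter windows are 95.4% identical over 281 aligned positions, so the division of reads between them is uncertain. With Akr1c18 each promoter window was 50.1% identical. Akr1c19, between them, was at 0 to 21.2 and was not called, and Akr1c14, Akr1c6 and Akr1c20 of the same cluster were listed at 0 in all samples.

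**Figure D3:**
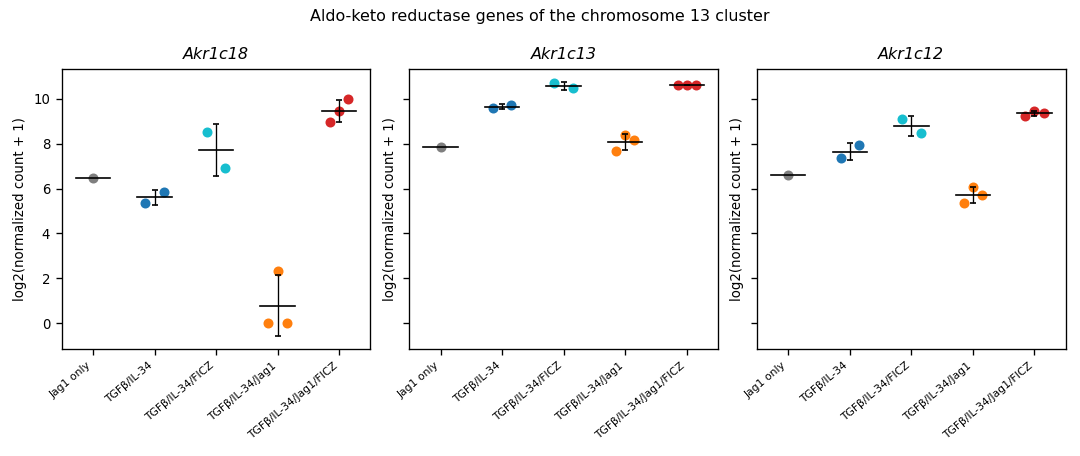
Akr1c18, Akr1c13 and Akr1c12 in each sample, as log2(normalized count + 1) on 1 common scale, by culture group. Points are samples, black lines are means and bars are 1 SD. All 3 genes are lowest in the Jag1 group without FICZ among the 4 groups given TGFβ and IL-34, and 2 of the 3 Akr1c18 points of that group are at 0.

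Across the 5 lists, Jag1 without FICZ changed 3 of the 47 tested genes, all lower, the pair above among them. That is 6.38%, against 6.60% of all tested genes. FICZ without Jag1 changed none of the 47. Of the 47, 10 had an unadjusted p under 0.05 (limma), as had 2284 of all 13095 tested genes.

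FICZ in Jag1 cultures changed 10 of the 47 listed genes, 5 higher and 5 lower, or 21.3% against 17.7% of all genes. The median log2 difference of the 47 was 0.08, and that of all tested genes −0.01. Of the 13 genes of cholesterol supply, Scarb1, the receptor that takes up cholesterol from high-density lipoprotein, rose from 665 ± 142 to 1482 ± 119 (SD, n = 3 each), by 1.17 (SE 0.182, limma, adjusted p 0.00162). Npc1 and Lipa, which release cholesterol from lysosomes, fell by 0.89 (SE 0.147, limma, adjusted p 0.00229) and by 0.81 (SE 0.170, limma, adjusted p 0.00845), and the other 10 were not called. Tspo, a cholesterol-binding protein of the outer mitochondrial membrane, was at 6654 to 7928 with FICZ and 4735 to 5110 without it in Jag1 cultures, and was not called (limma, adjusted p 0.227).

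Among the other enzymes, Srd5a3, a polyprenol reductase related to the 5α-reductases, fell by 0.77 (SE 0.198, limma, adjusted p 0.0226), and Hsd17b11, a 17β-hydroxysteroid dehydrogenase of lipid droplets, fell by 0.69 (SE 0.136, limma, adjusted p 0.00606). The Srd5a3 call was absent without any 1 of 5 of the 6 samples compared (adjusted p 0.0521 to 0.0893, limma). The glucocorticoid receptor gene Nr3c1 was not called (0.29, SE 0.311). The 8 tested genes that glucocorticoids are known to induce went both ways. Ddit4 rose by 1.72 (SE 0.30, limma, adjusted p 0.00303), Tsc22d3 fell by 1.43 (SE 0.329, limma, adjusted p 0.0132), and the other 6, Fkbp5 and Per1 among them, were not called. Tsc22d3 was not called when the first sample with Jag1 but no FICZ, or the second with both, was left out (limma, adjusted p 0.0511 to 0.0563). None of the 5 tested regulators of steroidogenesis was called, with a median log2 difference of 0.54.

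For Jag1 with FICZ, 1 of the 47 genes was called, or 2.13% against 2.02% of all tested genes. It was Dusp1, a phosphatase gene that glucocorticoids and stress induce, at 1423 ± 151 (SD, n = 3) against 678 ± 84.4 (SD, n = 2). Dusp1 was higher by 1.07 (SE 0.214, limma, adjusted p 0.0353), a call absent under 9 of 13 other settings. In the interaction the 2 called genes (4.26%, against 1.39% of all tested genes) were Akr1c12 and Akr1c13.

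**Figure D4:**
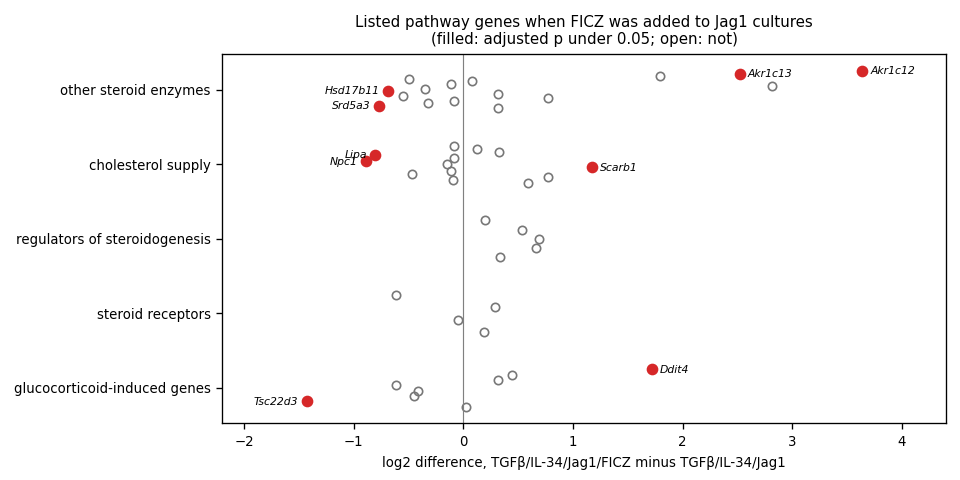
Log2 difference between TGFβ/IL-34/Jag1/FICZ and TGFβ/IL-34/Jag1 for the tested genes of 5 lists around the members, 1 row per list, with 1 gene left out. Filled points are genes with an adjusted p under 0.05 (limma) and are named, and open points are the others. Akr1c12 (3.64) and Akr1c13 (2.52) lie farthest to the right among the filled points.

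The marker sums of mast cells and basophils and of granulocyte progenitors were lowest where Cyp11a1 was lowest and highest with FICZ. Those of T cells, adipocytes and stroma did not keep that order. In bulk samples, fewer cells of a type and less RNA per cell cannot be told apart. The summed value of 13 mast cell and basophil markers was 1863 to 2986 normalized counts in TGFβ/IL-34/Jag1, 6445 and 6680 in TGFβ/IL-34, 7908 in Jag1 only, 9076 and 12565 in TGFβ/IL-34/FICZ, and 10245 to 13286 in TGFβ/IL-34/Jag1/FICZ. The sum was lowest where Cyp11a1 was lowest and was mostly Gata2, Cpa3 and Kit, which differed among themselves. Cpa3, a mast cell carboxypeptidase, had group means of 114 in TGFβ/IL-34/Jag1, 694 in TGFβ/IL-34, 2053 in Jag1 only, 3915 in TGFβ/IL-34/FICZ and 2897 with Jag1 and FICZ together. Gata2, a transcription factor of mast cells, basophils and progenitors, had means of 579, 4280, 2760, 4408 and 5314 in the same order of groups. Its TGFβ/IL-34/FICZ samples stood at 2810 and 6006, on either side of the 4164 and 4396 of TGFβ/IL-34, so no direction is read there. Kit, the stem cell factor receptor, had means of 1716, 1169, 1366, 1622 and 2036 in the same order of groups, and was not lowest in TGFβ/IL-34/Jag1. Hdc, which makes histamine, was highest in Jag1 only (1281), and Cd200r3, a receptor of basophils and mast cells, had a lower mean with Jag1 and FICZ (98.6) than in TGFβ/IL-34 (229). Fcer1a, which encodes a defining chain of the IgE receptor, was at 0 in all 11 samples, and Mcpt4, Tpsab1 and Tpsb2, defining proteases of mature mast cells, were at or under the limit of 3 reads in all of them. The remaining listed markers were detected, with higher means in TGFβ/IL-34/Jag1/FICZ than in TGFβ/IL-34/Jag1. They were 320 against 34.8 for Mcpt8, 58.9 against 1.02 for Ms4a2, 25.9 against 4.65 for Prss34 and 10.2 against 1.04 for Cma1. Without FICZ, Ms4a2 was lower with Jag1, at 14.7 and 35.3 in TGFβ/IL-34 and at most 2.48 in TGFβ/IL-34/Jag1. Mcpt8 overlapped there, at 34.4 and 44.7 in TGFβ/IL-34 and 31.2 to 37.7 in TGFβ/IL-34/Jag1. Prss34 and Cma1 had lower means in TGFβ/IL-34 (2.38 and 0.955) than in TGFβ/IL-34/Jag1, values near or under the limit of 3 reads. Of the 13 markers, 6 were above 0 in every TGFβ/IL-34/Jag1 sample and 9 in every TGFβ/IL-34/Jag1/FICZ sample.

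The 5 granulocyte progenitor markers summed to 75.0 to 255 in TGFβ/IL-34/Jag1, 296 and 464 in TGFβ/IL-34, 433 in Jag1 only, 2221 and 4127 in TGFβ/IL-34/FICZ and 4424 to 7344 in TGFβ/IL-34/Jag1/FICZ. Elane, neutrophil elastase, was at 2094 to 3694 in the last group and at 0 to 9.07 in TGFβ/IL-34/Jag1, whereas Mpo, a defining enzyme of such cells, did not exceed 27.2 in any sample. The list did not move as 1 between TGFβ/IL-34 and TGFβ/IL-34/Jag1. Means were lower with Jag1 for Elane (148 to 4.68) and Ms4a3 (85.6 to 15.8). They were higher with Jag1 for Ctsg (13.7 to 21.1) and Mpo (1.56 to 6.52). Prtn3 overlapped, at 87.8 to 174 without Jag1 and 28.3 to 207 with it. With Jag1 and FICZ together, Mpo had a mean of 3.95. Of this list, 4 of 5 were above 0 in every TGFβ/IL-34/Jag1 sample and 5 of 5 with FICZ added. Markers of T cells, of which 6 of 7 were in the table, summed to 29.2 to 229. Gata3, which other cells also express, was at 29.2 to 225 in TGFβ/IL-34/Jag1 (mean 119). With FICZ added it was at 29.3 to 68.5 (mean 50.5), values that overlapped. Genes of the T cell receptor complex, which define T cells, were higher with FICZ by their means. Cd3g was at 0 in all 3 TGFβ/IL-34/Jag1 samples and at 24.5 and 93.9 in TGFβ/IL-34/FICZ (mean 59.2). Its means were 1.39 in TGFβ/IL-34 and 53.4 with Jag1 and FICZ together. Cd3d was likewise at 0 in those 3 TGFβ/IL-34/Jag1 samples and at 4.44 and 36.8 in TGFβ/IL-34/FICZ (mean 20.6). Its means were 0.48 in TGFβ/IL-34 and 13.3 with Jag1 and FICZ together, and Cd3e did not exceed 6.71 in any sample. Il4, a cytokine of type 2 helper T cells and basophils, had a mean of 0.39 in TGFβ/IL-34/Jag1 and 16.1 with FICZ added. Adipocyte markers summed to at most 14.6. The OP9 stroma sum was 391 to 1054 in TGFβ/IL-34/Jag1 and 679 to 4630 in TGFβ/IL-34/Jag1/FICZ, with overlapping values. The part of mast cell, basophil, granulocyte progenitor, T cell and stroma markers in the levels of Cyp11a1 and Akr1c18 was not tested.

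**Figure D5:**
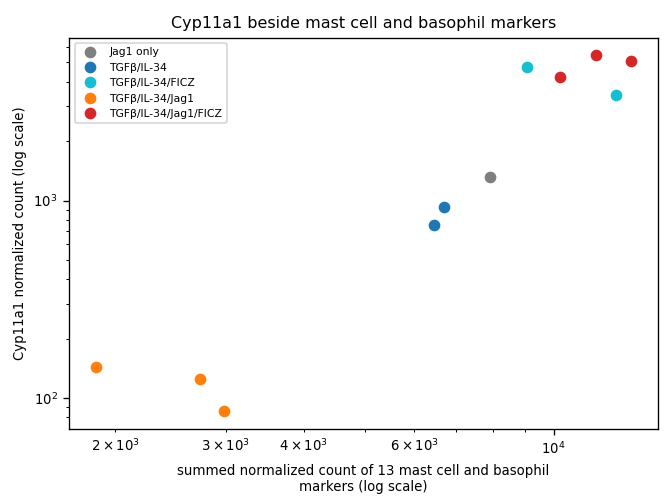
Cyp11a1 against the summed normalized count of 13 mast cell and basophil markers, 1 point per sample, both axes on a log scale and colours by culture group. The 3 TGFβ/IL-34/Jag1 samples lie at the lower left (Cyp11a1 at 86.3 to 145) and the 5 samples with FICZ at the upper right (3431 to 5428).

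Genes with the most similar patterns were ranked by Pearson's r of log2(normalized count + 1) over the 11 samples, among 11565 genes with a group mean of at least 50, as a description in which the samples share their groups. For Cyp11a1 they were Muc13 (0.989), a membrane mucin, Psat1 (0.988), an enzyme of serine synthesis, and Pecam1 (0.982), an adhesion molecule. For Akr1c18 they were the chemokine gene Ccl9 (0.986), Psat1 (0.982) and Cyp11a1 itself (0.976). Akr1c12 followed Cyp11a1 at 0.950 and Akr1c13 at 0.866.

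The partners of Cyp11a1 were less like it. Its r was 0.832 with Hsd11b1, 0.631 with Fdx1, 0.248 with Fdxr, 0.139 with Srd5a1 and −0.41 with Star. Fdx1 was closest to Tspo (0.980), Nup50 (0.977) and Rps27l (0.965), and both Fdx1 and Tspo were highest in replicate 1 of TGFβ/IL-34/FICZ (Tspo 17675) and next highest in Jag1 only (Tspo 14005). Fdxr was closest to Vars2 (0.950) and Mars1 (0.944), aminoacyl-tRNA synthetases, and to Pih1d1 (0.944). Hsd11b1 was closest to Gria3 (0.962), Rad18 (0.951) and Padi4 (0.947). For Star they were Pcsk7 (0.902), Senp2 (0.883) and Lancl2 (0.851), and for Srd5a1 Nxpe5 (0.922), Dnd1 (0.874) and Tst (0.853), low-count patterns in which single reads weigh on r.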

How the data were processed

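Bulk RNA-seq was analysed in 11 samples of 5 culture groups taken from the sample labels. The deposited values are a normalized signal per gene: the authors ran salmon on a transcript model of Ensembl (GRCm39), imported gene values through tximport and divided them by DESeq2 normalization factors, which from the values include transcript length per gene and sample, versions not given in the sources used here. Low values of genes with 1 annotated transcript (209 to 297 per sample) were whole multiples of 1 read in 80.9% to 98.4% of cases (within 0.1 steps, up to 15 steps). Genes with more transcripts were not part of this share. With factors that include transcript length, whole reads could not be recovered for nearly all genes, and no count model was run. Genes with at least 10 in at least 2 samples (13095) were fitted as log2(value + 1) with limma 3.58.1 in R 4.3.3 (lmFit, eBayes with a trend, 1 mean per group, all 11 samples, 6 residual degrees of freedom, two-sided, Benjamini-Hochberg adjustment per contrast, threshold 0.05). The script was tested on simulated data.

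The members and gene lists were chosen with earlier results of these data known. The listed genes named are up to 4 per list, direction and contrast, those with the largest differences among called genes whose higher group averaged 50 or more, beside the members' 3 nearest patterns and the cell type markers. Other genes of the lists are given as examples of what was not called or not detected, chosen after their values were seen. Coordinates and promoter windows are from GRCm39 and GENCODE vM39, read with pysam 0.24.0 in Python 3.11.15, and 21676 of 21860 genes matched that annotation. In the table, 74 of the 76 listed genes were found by symbol, of which 1 is counted in the lists but not reported here.

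Replicate numbers were checked for pairing: deviations from the group means of same-numbered samples of the groups with Jag1, without and with FICZ, which share an experiment code, correlated at 0.153, 0.122 and 0.166 across genes, so these are paired. In the other contrasts the correlations were under 0.1 (−0.01 to 0.06). For Jag1 with FICZ they were 0.059 and 0.058, although same-numbered samples share a code there too. Where TGFβ/IL-34 was the control group, same-numbered samples have different codes in the sample descriptions, so matching by number could not show a pairing. The replicate block joins those samples, and the main fit had no block. A second file of the authors matched the labelled condition in 11 samples and differed in the experiment code of 1. Alternatives were pseudocounts of 0.5 and 4, no filter, quantile normalization, only the groups compared, a replicate block, experiment blocks (that of the authors' file was added after the data were seen) and leaving out each replicate.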

Additional observations from a re-analysis of the deposited data

Results flagged for a closer look

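The effect of FICZ was larger with Jag1 than without it for Cyp11a1, by 3.12 (SE 0.352) on the log2 scale, and for Akr1c18, by 6.57 (SE 1.05), a description since both were chosen with these values known. For Akr1c12 the difference was 2.51 (SE 0.440, limma interaction, adjusted p 0.0365) and for Akr1c13 1.59 (SE 0.311, limma interaction, adjusted p 0.0430). Their list was also chosen with earlier results of these data known, so these are not independent tests. The calls were absent under 9 and 11 of 18 other settings. FICZ was higher than its control in 3 of 3 samples with Jag1 and 2 of 2 without it for all 4 genes. Of all tested genes, 45.1% had groups that did not overlap for FICZ with Jag1 and 45.7% for FICZ without it. Without Jag1, Akr1c18, Akr1c12 and Akr1c13 were not called for FICZ, and the call of Cyp11a1 was absent under 8 of 12 other settings (limma).

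The Jag1 difference in Akr1c18 had opposite signs without and with FICZ. All 3 TGFβ/IL-34/Jag1 samples lay below both TGFβ/IL-34 samples, a log2 difference of −4.82, and all 3 TGFβ/IL-34/Jag1/FICZ samples lay above both TGFβ/IL-34/FICZ samples, a log2 difference of 1.74 (SE 0.745). The latter was not called (limma) with all samples or under any of 13 other settings, was 0.42 within AA45, and 35.8% of all tested genes did not overlap in that comparison. No group held the 4 samples needed to look for single outlying values.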

How the results depend on the processing

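Each of 50 values and counts was recomputed under the alternatives, 700 values in all, of which 605 stayed within their limits, 95 moved and 0 took the opposite sign after being called. With a pseudocount of 4, the Akr1c18 differences were −3.36 for Jag1 without FICZ, 7.12 for FICZ with Jag1 and 5.08 in the interaction. With quantile normalization, the interaction was 0.83 for Hsd11b1 and −0.050 for Srd5a1, and FICZ without Jag1 called 5 genes in all. With only the compared groups fitted, 0 genes were called for FICZ without Jag1 and for Jag1 with FICZ (limma; 2284 and 3039 had an unadjusted p under 0.05 with all groups fitted), and 3598 for FICZ with Jag1. No listed gene was then called for Jag1 with FICZ, and 0 members for FICZ without Jag1. Without the filter the interaction called 74 genes, 0 of them listed and 1 a member, and there were 0 listed genes for Jag1 with FICZ and 0 members for FICZ without Jag1.

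With the replicate block, FICZ without Jag1 called 0 genes and 0 members, Jag1 with FICZ called 0 listed genes, and the paired comparison, FICZ with Jag1, called 2325 genes, 12 listed genes and 3 members. The block moved no other count by more than 1.5 times. With the experiment code of the descriptions as a block, FICZ without Jag1 called 1 gene and 0 members, Jag1 with FICZ 0 listed genes, and the interaction 44 genes, 0 listed and 1 member. With that of the authors' file, FICZ without Jag1 called 0 genes and 0 members and Jag1 with FICZ 0 listed genes.

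Leaving out each sample in turn gave, for all genes, listed genes and members in that order, 195 to 713, 0 to 3 and 1 to 2 calls for Jag1 without FICZ, 0 to 5734, 0 to 22 and 0 to 4 for FICZ without Jag1, 54 to 5827, 0 to 21 and 0 to 2 for Jag1 with FICZ, and 9 to 5497, 0 to 19 and 0 to 3 in the interaction. All of the upper ends above 1000 are those without replicate 2 of TGFβ/IL-34/FICZ, which leave replicate 1 alone, assumed to vary like the other groups, and the lowest counts for Jag1 without FICZ and the interaction came from leaving out the second TGFβ/IL-34 sample. The contrast of FICZ with Jag1 called 1389 to 1821 genes. Depending on which TGFβ/IL-34/FICZ sample was left out, FICZ without Jag1 gave −0.95 to 1.09 for Star, 0.049 to 1.65 for Fdx1 and −0.23 to 0.76 for Fdxr, Jag1 with FICZ gave −1.21 to 0.83, −1.19 to 0.40 and −0.72 to 0.28, and the interaction gave −1.78 to 0.26, −0.94 to 0.66 and −0.71 to 0.28, so no direction is read for these 3 genes there. The cause of these shifts was not tested beyond the samples left out. Akr1c18 in TGFβ/IL-34/Jag1, Hsd11b1, Srd5a1 and Star rest on few reads, and their differences are limited by depth.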
